A study of Mus musculus with 5 samples.

Results

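The genes described here are cytokines, chemokines, their receptors and a few proteins named after them, in macrophages grown from bone marrow of C3H/HeJ mice. They were chosen by symbol alone: genes whose single platform symbol starts with Il and a digit, Ccl, Ccr and digits only, Cxcl, Cxcr, Tnf, Csf or Ifn. The rule found 51 of 9050 named genes, on 76 probes. Of these, 46 had a value on all 5 arrays, out of 8452 such genes in the whole series, namely 29 ligands, 12 receptors and 5 other proteins. The macrophages had matured in culture under human CSF-1 and were left unexposed (0 h) or exposed to 10 µg/ml lipopolysaccharide (LPS) of Salmonella minnesota for 0.5, 2, 7 or 21 h. Total RNA of each time was hybridised on 1 two-colour array together with that of whole C57BL6/J embryos of 17.5 days, so there were 5 arrays in 5 groups of 1. All macrophages share the C3H/HeJ strain, known for a mutation in Tlr4, the signalling receptor for LPS, that leaves it hyporesponsive.

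Cytokines are secreted proteins by which cells signal to each other over short distances. Chemokines, the Ccl and Cxcl ligands, draw leukocytes along gradients through G protein-coupled receptors, while interleukins, interferons and TNF family ligands act through receptors that signal to JAK and STAT proteins or to NF-kB. Macrophages are a main source of many of them. In responsive strains LPS is a classical inducer of Tnf, Il6, Il1b, Cxcl10 and Ccl5 through NF-kB and interferon pathways. Of these, Tnf, Il6 and Il1b were not among the genes that the symbol rule found, so their course is not known here.

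Values are the deposited log ratios, with each array centred on the median of all genes. The base is not stated, and values are read as log10, so a 2-fold difference is 0.301, the size from which a gene was counted as higher or lower. The direction is likely macrophage over embryo: of 6 measured macrophage marker genes 4 were above embryo by the size rule at 0 h, among them Lyz2 (1.13), while all 4 liver markers were below it. Cd68 (-0.16 at 0 h) and Tyrobp (-0.05 at 0 h), also macrophage markers, were below 0. A ratio of this kind says how a transcript stood against the embryo, not how abundant it was, and in bulk RNA fewer cells of a type and less RNA per cell cannot be told apart.

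With 1 array a time nothing could be tested, and differences between times stand without replicates. Every difference from 0 h uses the same 0 h array, so differences at several times are not separate evidence of a change. The only error these arrays hold is the spread between probes of a gene. Pooled over 2968 genes with more than 1 probe, its SD was 0.48, 0.16, 0.16 and 0.19 for the differences of the 0.5, 2, 7 and 21 h arrays from 0 h. The 0.5 h array stood apart: its correlation with the 0 h array across probes was 0.48, where the 2, 7 and 21 h arrays had 0.85, 0.84 and 0.75. Mean ratios below therefore leave it out, and its values are given beside the others. An SD over the other arrays is a spread between times, not an error between replicates. Only 10 of the 46 genes had more than 1 probe.

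Cxcl10 and Ccl9 are the chemokines for which promoter sequence is shown. Cxcl10 encodes a chemokine induced by interferons and NF-kB and is the textbook LPS target of the set, and Ccl9 had the highest ratio over embryo. Of the 46 measured genes 37 had a promoter in the RefSeq table (GRCm38.p6), which spans 250 bases before to 50 after an annotated start, 49 windows in all. Capitals mark matches on either strand to the interferon-stimulated response element (TTTC, any pair of bases, TTTC), the NF-kB consensus and the AP-1 element TGANTCA; matches to different elements do not overlap in the sequences shown.
Cxcl10 (chr5:92348840-92349139, minus strand): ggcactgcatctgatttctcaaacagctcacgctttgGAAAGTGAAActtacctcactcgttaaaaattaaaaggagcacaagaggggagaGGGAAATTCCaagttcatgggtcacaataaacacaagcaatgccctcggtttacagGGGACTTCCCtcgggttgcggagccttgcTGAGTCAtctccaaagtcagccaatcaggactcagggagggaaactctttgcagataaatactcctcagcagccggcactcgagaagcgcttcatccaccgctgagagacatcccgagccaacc
Ccl9 (chr11:83578587-83578886, minus strand): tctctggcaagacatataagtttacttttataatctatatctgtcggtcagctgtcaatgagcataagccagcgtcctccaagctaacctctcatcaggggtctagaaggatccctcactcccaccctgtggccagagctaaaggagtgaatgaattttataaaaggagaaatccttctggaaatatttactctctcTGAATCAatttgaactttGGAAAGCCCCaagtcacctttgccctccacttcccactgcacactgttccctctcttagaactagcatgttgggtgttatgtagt

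Counted from the annotated start as position 0, the Cxcl10 window held a response element at -213, NF-kB matches at -159 and -103 and an AP-1 match at -74. The Ccl9 window held an AP-1 match at -53 and an NF-kB match at -35. This AP-1 match had A at the open base of the element, where all others in windows of these genes had G or C. Over all 32851 windows of this length, 3.44% held the response element, 4.51% the NF-kB consensus and 7.81% the AP-1 element. Among the 49 windows of the measured cytokine and receptor genes the shares were 10.2%, 12.2% and 18.4%, with several windows of 1 gene counted separately. The myeloid PU.1 element GAGGAAGT was in none of the 49 and in 3.20% of all windows. With 49 windows, none does not stand apart from that share. A match is only a match of letters.

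The question asked of each array was which of these genes stood above or below the embryo. At 0 h, 9 of the 46 genes were at least 2-fold above embryo, against 8.99% of all genes, and 3 were at least 2-fold below, against 8.9%. On the 0.5 h array the counts were 17 above and 4 below, where all genes gave 23.4% and 17%. At 2 h they were 13 and 5, beside 13.4% and 12.9% of all genes. The 7 h array had 11 above and 2 below, beside 12.6% and 8.02%, and the 21 h array 9 and 3, beside 9.67% and 9.12%. In percent of the 46 genes, those above were 19.6%, 37.0%, 28.3%, 23.9% and 19.6% from 0 to 21 h. After quantile normalization the counts above were 17, 15, 13, 15 and 18, so the course with its highest count at 0.5 h was not kept. The shares of all genes just given do not apply to these counts, because that step gives every array the same distribution of values. With arrays only centred, the median of the 46 was 0.09, 0.16, 0.12, 0.07 and 0.04 from 0 to 21 h, where all genes were at 0.00 by construction.

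On all of the 0, 2, 7 and 21 h arrays 4 of the 46 genes were at least 2-fold above embryo, the chemokines Ccl9 and Ccl6 and the receptors Tnfrsf1a and Tnfrsf13c, where 3.38% of all genes were. None was at least 2-fold below on all 4, where 4.76% of all genes were. Against 0 h, none of the 46 was lower by the size rule at all 4 later times and none higher, beside 0.106% and 0.0355% of all genes.

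**Figure D1:**
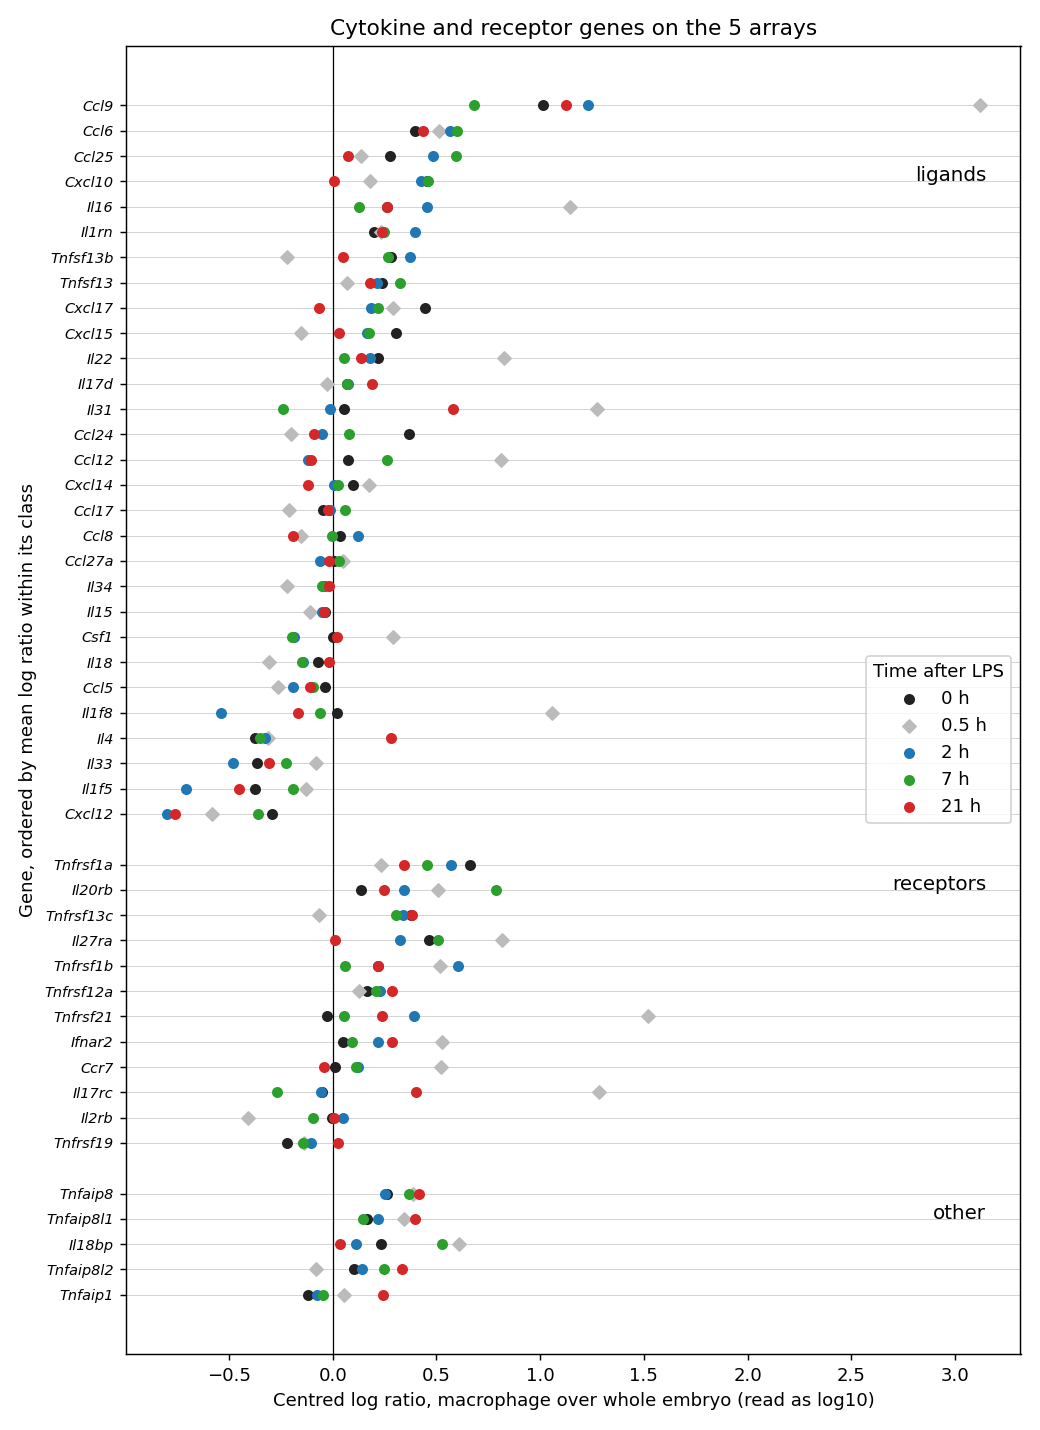
Centred log ratio of macrophage over whole embryo RNA (x axis, read as log10) for the 46 genes measured on all 5 arrays, 1 row a gene and 1 point an array, with ligands above receptors and other proteins below. Ccl9 lies furthest right among ligands and Cxcl12 furthest left, and the 0.5 h array (grey diamonds) often lies away from the other 4.

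Among chemokine ligands, Ccl9 had a log ratio of 1.02, 3.12, 1.23, 0.68 and 1.13 on the 0, 0.5, 2, 7 and 21 h arrays on its 1 probe. Ccl9, a CC chemokine made by myeloid cells that binds Ccr1, was thus above embryo on every array. The mean over the 0, 2, 7 and 21 h arrays was 1.01 ± 0.24 (SD, n = 4 arrays). Read as log10 the 0 h ratio was 10.4-fold and the 0.5 h ratio 1317-fold. Whether the assumed base or a faulty value lies behind that size was not tested. Of 40 probes with neighbouring numbers, 9 were also at least 2-fold higher at 0.5 h than at 0 h, where 7.96 of 40 were on average over the array. The Ccl9 difference at 0.5 h was 2.10, but 0.276 after quantile normalization and 0.861 with arrays scaled to one median absolute deviation.

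Ccl6, a CC chemokine of macrophages and other myeloid cells, was the best sampled gene, with 7 probes. Its mean log ratio was 0.40, 0.51, 0.57, 0.60 and 0.44 on the 0, 0.5, 2, 7 and 21 h arrays, with SDs over probes between 0.29 and 0.62. The probes were spread wider than the times: at 0 h they lay between -0.01 and 0.80 and at 7 h between 0.10 and 1.33. The differences of the 2, 7 and 21 h arrays from 0 h were 0.17 ± 0.19, 0.20 ± 0.23 and 0.04 ± 0.18 (SD, 7 probes each), with 5, 6 and 4 of the 7 probes higher. Each was smaller than the spread between probes. In the direction of each of the 7 probes, 0, 0, 11, 13, 13, 12 and 12 of up to 40 neighbouring probes were past the size rule at 7 h. On average over the array 1.78 of 40 were past it upwards. The part of the neighbours in the result was not tested.

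Ccl25, a chemokine of thymus and small intestine that binds Ccr9, had 5 probes and averaged 0.27, 0.14, 0.48, 0.59 and 0.08 on the 0, 0.5, 2, 7 and 21 h arrays. All 5 probes were higher at 7 h than at 0 h, by 0.32 ± 0.14 (SD over 5 probes). At 2 h the probes differed by 0.21 ± 0.40, with 3 of 5 higher, and at 21 h by -0.20 ± 0.28, with 3 of 5 lower. The Ccl25 difference at 7 h was under the size rule with no centring (0.298) and after quantile normalization (0.288). It was 0.239 once the running median over probe numbers was removed. Around the probe with the highest 2 h ratio (1.24), 14 of 40 neighbouring probes were past the size rule upwards at 2 h and 14 at 7 h, where 2.52 and 1.78 of 40 were on average; their part in the result was not tested.

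**Figure D2:**
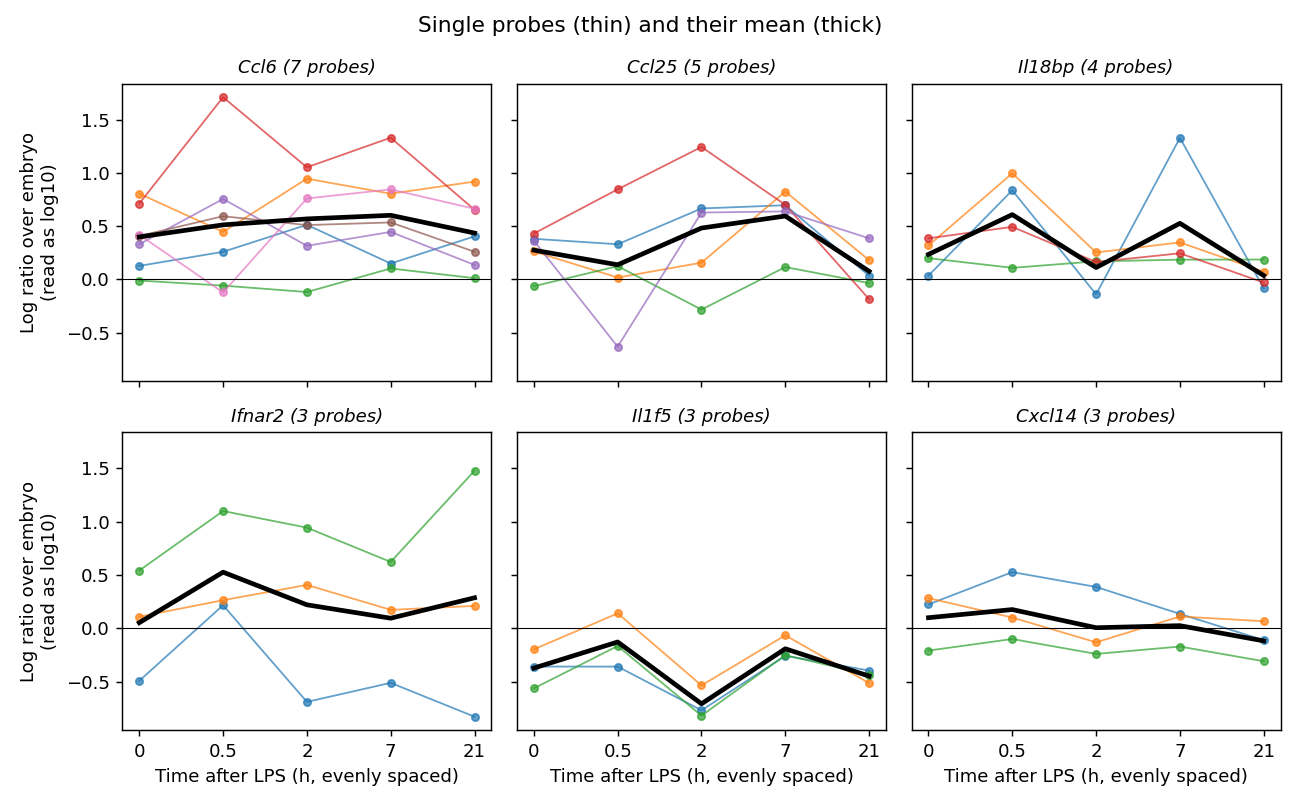
Log ratio over embryo (y axis, read as log10) of each probe (thin coloured lines) and their mean (thick black line) against time after LPS, for 6 genes with at least 3 probes. The 3 probes of Il1f5 run close together, while those of Ifnar2 lie between -0.83 and 1.48 at 21 h.

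Chemokines with a lower ratio after LPS were Ccl24 and Cxcl12, the only 2 of the 46 genes past the size rule in the same direction at 2 or more of the 2, 7 and 21 h arrays; 1.03% of all genes were lower in this way. None was higher in this way, where 1.48% of all genes were. Ccl24, an eosinophil-attracting chemokine that binds Ccr3, had a log ratio of 0.37, -0.20, -0.05, 0.08 and -0.09 on the 0, 0.5, 2, 7 and 21 h arrays on 1 probe. It was above embryo at 0 h and near it on every later array. The differences of the 0.5, 2, 7 and 21 h arrays from 0 h were -0.57, -0.42, -0.29 and -0.46, the 7 h one short of the size rule. All of them share the same 0 h value, so a high reading there would lower them together.

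Cxcl12, the stromal ligand of Cxcr4 that retains haematopoietic cells in bone marrow, had -0.29, -0.58, -0.80, -0.36 and -0.76 on the 0, 0.5, 2, 7 and 21 h arrays. It was below 0 on every array, at 0 h just short of the size rule, and had the lowest mean of the 46 genes (-0.55 ± 0.26, SD, n = 4 arrays). Its differences on the 2, 7 and 21 h arrays from 0 h were -0.51, -0.07 and -0.47. The 6 fibroblast markers, of which 4 were 2-fold below embryo at 0 h, had a summed log ratio of -3.98, -4.39, -5.51, -4.43 and -3.29 on the 0, 0.5, 2, 7 and 21 h arrays. Their median difference was -0.23 at 2 h and 0.04 at 21 h; their part in the result was not tested.

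Cxcl10 had a log ratio of 0.45, 0.18, 0.42, 0.46 and 0.0055 on the 0, 0.5, 2, 7 and 21 h arrays, on 1 probe. The inducible chemokine differed from 0 h by -0.03 at 2 h and 0.00 at 7 h, and by -0.45 at 21 h, where it was level with embryo. After quantile normalization the Cxcl10 difference at 2 h was -0.21, the Cxcl10 difference at 7 h -0.159 and the Cxcl10 difference at 21 h -0.668. Around its probe 5 of 40 neighbours were past the size rule downwards at 21 h, where 3.18 of 40 were on average. Cxcl17, a mucosal chemokine, had 0.45, 0.29, 0.19, 0.22 and -0.07 from 0 to 21 h. Its difference at 21 h was -0.51, and 17 of 40 neighbouring probes were lower there too, with a median of -0.23. With the running median over probe numbers removed the 21 h differences were -0.39 for Cxcl17 and -0.36 for Cxcl10. After quantile normalization the Cxcl17 difference at 21 h was -0.736.

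**Figure D3:**
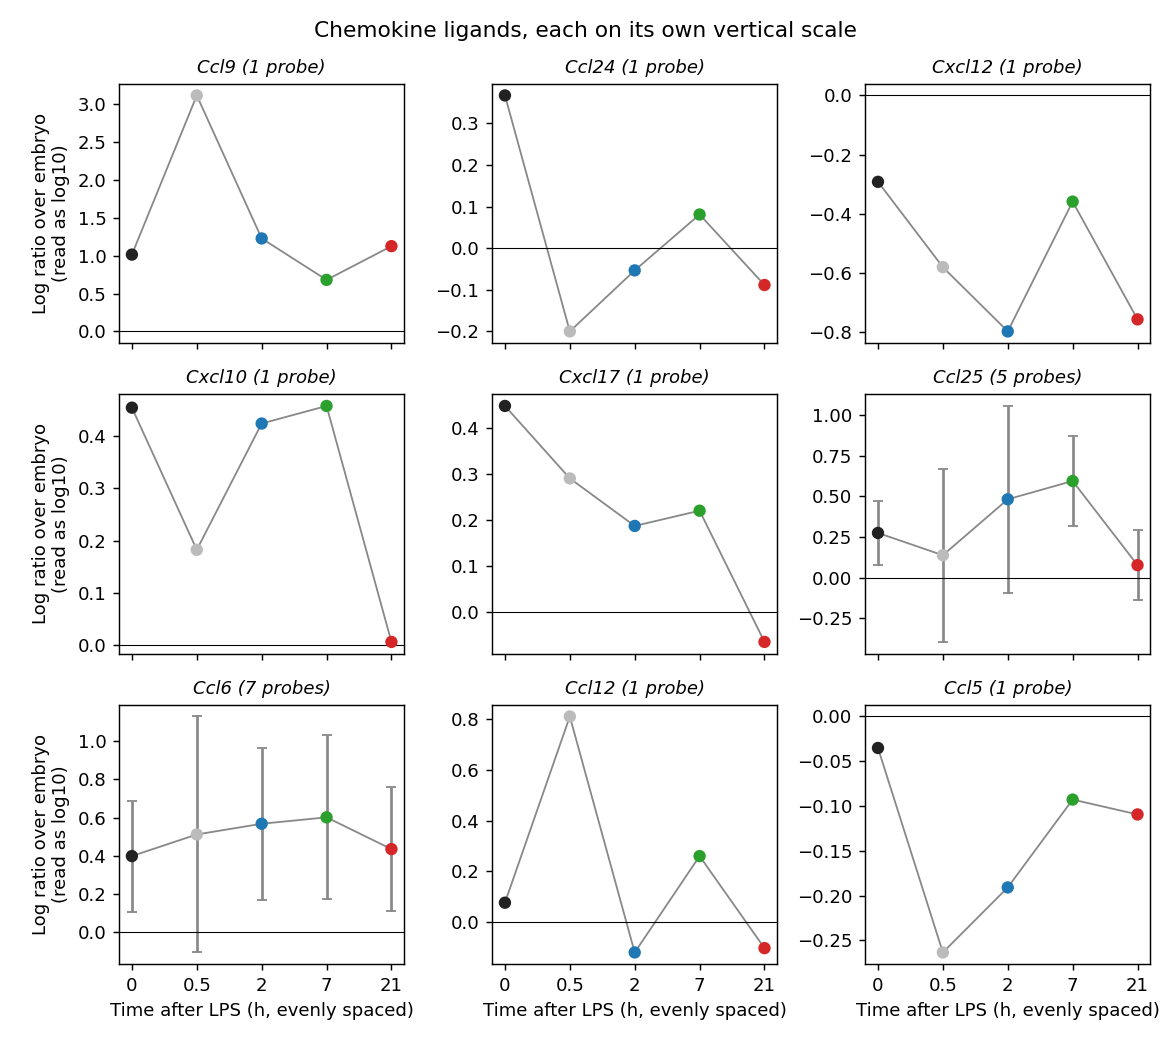
Log ratio over embryo (y axis, read as log10, each panel on its own scale) of 9 chemokine ligands against time after LPS (evenly spaced), 1 array each; bars are the SD over probes where there was more than 1. Cxcl10 lies between 0.42 and 0.46 at 0, 2 and 7 h and is lower at 21 h, while Ccl24 is highest at 0 h.

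Ccl5 and Ccl12 complete the inducible chemokines. Ccl5, a T cell-attracting chemokine, had -0.04, -0.26, -0.19, -0.09 and -0.11 from 0 to 21 h, below embryo throughout and never past the size rule. Ccl12, a monocyte-attracting ligand of Ccr2, had 0.08, 0.81, -0.12, 0.26 and -0.10. It was high on the 0.5 h array alone (0.74 above 0 h), with differences of -0.20, 0.18 and -0.18 afterwards. Ccl8 and Ccl17 stayed between -0.21 and 0.12 on all 5 arrays. Cxcl14, an epithelial chemokine, averaged 0.10 at 0 h and -0.12 at 21 h, a difference of -0.22 ± 0.12 (SD over 3 probes) with all 3 probes lower. Ccl27a, the skin chemokine, kept within 0.07 of the 0 h array on its mean over 2 probes.

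At 21 h 4 of the 14 chemokine ligands were lower by the size rule, Ccl24, Cxcl10, Cxcl12 and Cxcl17, where 4.69% of all genes were; none was higher, where 4.33% were. Their median difference was -0.21, beside 0.003 for all genes, and 11 of the 14 were below 0 h, as were 4151 of all 8452 genes. The median was between -0.26 and -0.14 over all processing alternatives, the weakest with the running median over probe numbers removed. At 0.5, 2 and 7 h the median difference was -0.16, -0.08 and -0.05, beside -0.01, -0.01 and 0.02 for all genes. Below 0 h at these times were 9, 9 and 8 of 14, beside 4417, 4600 and 3541 of all 8452 genes. These medians and counts share the same 0 h array.

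Interleukin ligands had a median of -0.01 over 12 genes at 0 h. Above embryo by the size rule from 0 to 21 h were 0, 4, 2, 0 and 1 of the 12, and below 3, 2, 4, 1 and 2. The shares of all genes were 8.99%, 23.4%, 13.4%, 12.6% and 9.67% above, and 8.9%, 17%, 12.9%, 8.02% and 9.12% below. Il1rn, which encodes the IL-1 receptor antagonist and is a known product of macrophages, had 0.20, 0.23, 0.40, 0.25 and 0.24 from 0 to 21 h on 1 probe. Its ratio was above 0 on every array but past the size rule at 2 h only, with a mean of 0.27 ± 0.09 (SD, n = 4 arrays). The largest difference of Il1rn from 0 h was 0.20 at 2 h, under the size rule. Il16, a ligand of Cd4, had 0.26, 1.15, 0.46, 0.13 and 0.26. Il15, which sustains NK cells and memory T cells, and Il34, a second ligand of the CSF-1 receptor, differed by at most 0.03 from 0 h at 2, 7 and 21 h.

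Below the embryo were Il33, an alarmin of epithelial and stromal nuclei (mean -0.34 ± 0.11), and Il1f5, now called Il36rn, the antagonist of the IL-36 receptor in skin (-0.43 ± 0.21, both SD, n = 4 arrays). Il1f5 had 3 probes and averaged -0.37, -0.13, -0.71, -0.19 and -0.45 from 0 to 21 h. All 3 probes were lower at 2 h than at 0 h, by -0.33 ± 0.08, and all 3 higher at 7 h, by 0.18 ± 0.11 (SD over 3 probes). The 2 h difference was -0.17 after quantile normalization and -0.23 with arrays scaled to one median absolute deviation, both under the size rule. Il1f8 (Il36b), an IL-36 receptor agonist of skin, had 0.02, 1.06 and -0.54 on the 0, 0.5 and 2 h arrays, a 2 h difference of -0.56. Il18, an IL-1 family cytokine, had a mean of -0.09 ± 0.06.

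Il4 and Il31, cytokines of T helper cells, were the interleukin ligands past the size rule against 0 h at 21 h, both upwards. Il4 had -0.37, -0.31, -0.32, -0.35 and 0.28 from 0 to 21 h, so that 4 arrays were alike and the 21 h array was higher by 0.65. Il31 had 0.05, 1.27, -0.01, -0.24 and 0.58, a 21 h difference of 0.53. Of the probes numbered next to each of them 10 of 40 and 9 of 40 were higher at 21 h, where 2.37 of 40 were on average. The 5 measured T and NK cell markers had a summed log ratio of -0.12, 1.72, -0.28, 0.20 and -0.31 from 0 to 21 h. None was past the size rule upwards at 21 h, and Gzma (-0.32) was past it downwards. Cd3d and Cd3g differed from 0 h by 0.18 and 0.29 at 21 h, and Nkg7 and Gzmb by -0.25 and -0.08. The part of such cells in the result was not tested.

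Among the remaining ligands, Tnfsf13b (BAFF), a survival factor for B cells that macrophages make, had 0.28, -0.22, 0.37, 0.27 and 0.05 from 0 to 21 h. Its relative Tnfsf13 (APRIL) had 0.24, 0.07, 0.21, 0.32 and 0.18. Both had ratios above 0 on the 0, 2, 7 and 21 h arrays, and of their differences from 0 h only that of Tnfsf13b at 0.5 h (-0.50) passed the size rule. Csf1, the growth factor given to the cultures in its human form, had 0.0020, 0.29, -0.19, -0.19 and 0.02. Cxcl15, a lung chemokine, was lower than at 0 h at 0.5 h (-0.46).

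Ligands had medians of 0.07, 0.05, -0.01, 0.06 and -0.02 from 0 to 21 h over 29 genes, and receptors 0.09, 0.51, 0.28, 0.10 and 0.24 over 12 genes. The ligand median minus the receptor median was -0.02, -0.46, -0.29, -0.05 and -0.26 in the same order. Ligands were thus nearly level with receptors at 0 and 7 h and below them at 0.5, 2 and 21 h. The sign was negative under every processing alternative on every array. Centring and scaling of a whole array cannot change it, and quantile normalization keeps the order of genes, so these settings were not a check of the sign. Above embryo by the size rule from 0 to 21 h were 6, 7, 7, 5 and 3 of 29 ligands and 3, 7, 6, 4 and 3 of 12 receptors, beside 8.99%, 23.4%, 13.4%, 12.6% and 9.67% of all genes. The ligand share was 10.3% at 21 h, near that of all genes. Below embryo by the size rule were 3, 3, 5, 2 and 3 ligands and 0, 1, 0, 0 and 0 receptors, the receptor at 0.5 h being Il2rb (-0.41). The shares of all genes below were 8.9%, 17%, 12.9%, 8.02% and 9.12%, which the ligand counts do not stand clear of. Genes are not replicates, so these medians are a description of 2 short lists.

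**Figure D4:**
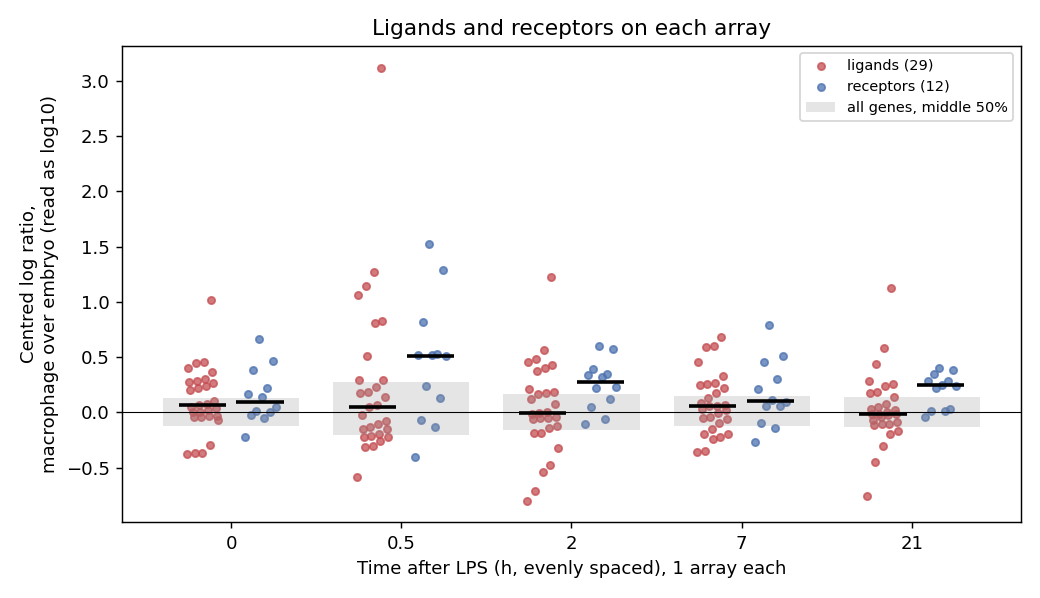
Centred log ratio over embryo (y axis, read as log10) of 29 ligands (red, left) and 12 receptors (blue, right) on each array; points are genes, black bars medians, and grey the interquartile range of all genes. Receptor medians lie above ligand medians on every array, by 0.02 at 0 h and 0.26 at 21 h.

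Tnfrsf1a, the ubiquitous TNF receptor with a death domain, had 0.66, 0.24, 0.57, 0.45 and 0.34 on the 0, 0.5, 2, 7 and 21 h arrays. It was the receptor highest over embryo (mean 0.51 ± 0.14, SD, n = 4 arrays). It was lower than at 0 h on every later array, with a difference of -0.32 at 21 h. These differences share the same 0 h value. The Tnfrsf1a difference at 21 h was -0.591 after quantile normalization and -0.23 with the running median over probe numbers removed, and no neighbouring probe of 40 was past the size rule downwards. Tnfrsf1b, the TNF receptor of leukocytes, had 0.22, 0.52, 0.60, 0.06 and 0.22. It was higher at 2 h by 0.38 and back at 0.22 at 21 h. Tnfrsf21, death receptor 6, had -0.03, 1.52, 0.39, 0.05 and 0.24, a 2 h difference of 0.42.

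Tnfrsf13c, the BAFF receptor of B cells, had 0.38, -0.07, 0.34, 0.31 and 0.38, the steadiest ratio of the receptors with a mean over 0.3 (0.35 ± 0.04). The 2 measured B cell markers of 6 were below 0 on all 5 arrays. Tnfrsf12a, the receptor of TWEAK, averaged 0.17, 0.13, 0.23, 0.21 and 0.29 over 3 probes. All 3 of its probes were higher at 2 h and at 21 h than at 0 h, by 0.06 ± 0.05 and 0.12 ± 0.12. Tnfrsf19, a receptor of developing epithelium and brain, was the lowest receptor at 0 h (-0.22 ± 0.19, SD over 2 probes).

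Among interleukin and interferon receptors, Il27ra, a chain of the IL-27 receptor, had 0.46, 0.81, 0.32, 0.51 and 0.01 from 0 to 21 h. It was lower at 21 h, with a difference of -0.45, and at 2 h the difference was -0.14. After quantile normalization the Il27ra difference at 21 h was -0.679 and the Il27ra difference at 2 h -0.343. Il20rb, a receptor chain for IL-19, IL-20 and IL-24, had 0.14, 0.51, 0.34, 0.79 and 0.25, and was highest at 7 h, by 0.65 over 0 h. Around its probe 12 of 40 neighbours were higher at 7 h too, where 1.78 of 40 were on average, and the difference was 0.61 with the running median removed. Il17rc, a receptor chain for IL-17A and IL-17F, had -0.05, 1.28, -0.06, -0.27 and 0.40.

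Ifnar2, a chain of the type I interferon receptor, averaged 0.05, 0.53, 0.22, 0.09 and 0.29 over 3 probes that did not agree. At 21 h they stood at 1.48, 0.21 and -0.83, an SD of 1.16, so its level is not settled by these arrays. Ccr7, the homing receptor of mature dendritic cells and lymphocytes, had 0.01, 0.52, 0.12, 0.11 and -0.04. Il2rb, a receptor chain for IL-2 and IL-15, stayed between -0.10 and 0.05 on the 0, 2, 7 and 21 h arrays.

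Of the 5 other proteins 0, 3, 0, 2 and 3 were above embryo by the size rule from 0 to 21 h, and none was below. The shares of all genes were 8.99%, 23.4%, 13.4%, 12.6% and 9.67% above, and 8.9%, 17%, 12.9%, 8.02% and 9.12% below. With 5 genes, none below does not stand apart from these shares. Tnfaip8, a TNF-induced regulator of cell survival, averaged 0.26, 0.39, 0.25, 0.37 and 0.41 over 2 probes. Both probes were higher at 21 h than at 0 h, by 0.15 ± 0.11 (SD over 2 probes). Its relatives Tnfaip8l1 and Tnfaip8l2, the second a brake on immune receptors, were higher at 21 h by 0.23 each. Tnfaip1 was past the size rule at 21 h (0.36), and at -0.12 was the lowest of these 5 at 0 h. Il18bp, the secreted inhibitor of IL-18, averaged 0.24, 0.61, 0.11, 0.53 and 0.04 over 4 probes. All 4 probes were lower on the 2 h array (-0.12 ± 0.09) and the 21 h array (-0.20 ± 0.17) than on the 0 h array, and the 7 h mean rested on 1 probe at 1.33, where the other 3 lay between 0.19 and 0.35. With the median of the probes in place of the mean, the Il18bp difference at 7 h was 0.0381.

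Counted against 0 h, 2 of the 46 genes were higher and 4 lower at 2 h, where 4.24% and 2.58% of all genes were. Those higher were the receptors Tnfrsf21 and Tnfrsf1b, and those lower the ligands Il1f8, Cxcl12, Ccl24 and Il1f5. At 7 h 2 were higher, Il20rb and Ccl25, and Ccl9 was lower (-0.33, and -0.79 after quantile normalization), beside 3.35% and 1.4% of all genes. The balance at 7 h turned to 1 higher and 5 lower after quantile normalization, and to 1 higher and 3 lower with no centring. At 21 h 4 were higher and 6 lower, beside 4.33% and 4.69%. Those higher were Il4, Il31, Il17rc (0.46) and Tnfaip1, and those lower were the 4 chemokines, Il27ra and Tnfrsf1a. Of the probes numbered next to Il17rc and Tnfaip1, 9 of 40 and 5 of 40 were higher at 21 h too, where 2.37 of 40 were on average. In percent of the 46, those higher were 4.35%, 4.35% and 8.70% and those lower 8.70%, 2.17% and 13.0% on the 2, 7 and 21 h arrays. At these 3 times 29 of the 46 genes never passed the size rule, where 83.8% of all genes never did.

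On the 0.5 h array 13 of the 46 were higher and 6 lower than at 0 h, beside 19.9% and 10.6% of all genes. After Ccl9 (2.10) the highest differences were those of Tnfrsf21 (1.55), Il17rc (1.34), Il31 (1.22) and Il1f8 (1.04), each on 1 probe. After quantile normalization the Tnfrsf21 difference at 0.5 h was 0.874, the Il17rc difference at 0.5 h 0.777, the Il31 difference at 0.5 h 0.644 and the Il1f8 difference at 0.5 h 0.564. The Ccl9 difference at 0.5 h was then 0.276, below these 4, so neither sizes nor order held. Lowest were Ccl24, Tnfsf13b, Cxcl15, Tnfrsf13c (-0.45) and Tnfrsf1a (-0.43). The Il27ra difference at 0.5 h was 0.35, but -0.022 with arrays scaled to one median absolute deviation and -0.228 after quantile normalization. These differences are set against a spread between probes of 0.48.

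The 5 genes with a missing value were Ccl11, Il1a, Il17b, Ifngr1 and Tnfaip6. Il1a, an agonist of the IL-1 receptor, had 0.21, -0.57, -0.09 and -0.06 on the 0, 0.5, 2 and 21 h arrays and no value on the 7 h array. Il17b had -0.14, 0.35, -0.46 and -0.10 on the 0, 2, 7 and 21 h arrays. Ifngr1, a chain of the interferon gamma receptor, had no value at 0 h and lay between -0.16 and 0.16 on the other arrays. Ccl11 also had none at 0 h, and Tnfaip6 had none at 0.5 h and 0.27 at 21 h.

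Of 79 listed cytokine and signalling genes with other names 27 were measured, with a median between 0.00 and 0.06 on the 5 arrays. Against 0 h, 1, 1, 2 and 2 were higher on the 0.5, 2, 7 and 21 h arrays, beside 19.9%, 4.24%, 3.35% and 4.33% of all genes. In the same order 5, 0, 0 and 2 were lower, beside 10.6%, 2.58%, 1.4% and 4.69%. At 2, 7 and 21 h these counts are too small to stand apart from the shares of all genes. At 21 h the kinase Jak1 (0.36) and the interferon signal protein Stat2 (0.31) were higher, and Cish (-0.32), a feedback inhibitor of cytokine receptors, and Epor (-0.34), the erythropoietin receptor, lower. Jak3 differed by 0.21 and Stat5b by 0.06. Nfkbie, an inhibitor of NF-kB, was higher at 0.5, 2 and 7 h (1.40, 0.56 and 1.12), and Traf5, an adaptor of TNF receptors, at 7 h (0.53). Pf4, the chemokine also called Cxcl4, had 0.56, 0.50, 0.71, 0.50 and 0.60, above embryo by the size rule on all 5 arrays.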

How the data were processed

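Log ratios per probe and array were deposited by the authors as 1 table, and their log10 base is a reading: base, centring, direction, scanner and background correction are not stated in the sources used. Per the labels, cDNA was labelled by the amino-allyl method with Cy3. Spot intensities were not used, so signal over background is unknown; precision is limited by how few arrays there are.

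Of 19828 probes 14759 had 1 symbol, 170 several and 4899 none; symbols were updated by Entrez identifier (GRCm38.p6 table; 14628 matched, all 76 probes of these genes among them). Deposited array medians over genes were 0.02, 0.06, 0.03, -0.003 and 0.02 from 0 to 21 h. Probes with a value on all 5 arrays were averaged per gene, arrays centred on the gene median, and each time compared with 0 h. Members, lists and rules were chosen with earlier results of these data known. Named were the 5 marker genes, genes past the size rule at 2 or more late times, the 5 largest differences each way per time, the 8 highest and 8 lowest mean ratios, class extremes and genes with several probes; others are named as context. Neighbours are the 20 probe numbers on each side. The steps were tested on simulated data. Python 3.11.15, numpy 2.4.6, pandas 2.3.3 and matplotlib 3.10.9 were used.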

Additional observations from a re-analysis of the deposited data

How the results depend on the processing

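With 1 array a time, limits are set by the spread between probes, by the unknown log base and by the wide 0.5 h array. No paired analysis was possible because each group holds 1 array. All medians of ligands, receptors and chemokine ligands moved by less than the spread between probes under each alternative, 217 values in all. That spread is of single genes and is a wide measure for a median, so this does not show the medians to be stable. Within it, the receptor median difference from 0 h lay between 0.06 and 0.36 at 0.5 h, and between -0.05 and 0.06 at 7 h. Of the recomputed counts 144 stayed within 1.5 times of theirs while 49 did not. Read as log base 2, genes above embryo numbered 1, 6, 1, 0 and 1 from 0 to 21 h and none was below; 5 were higher than 0 h at 0.5 h and 0 later, and 0 lower at any time. With a 3-fold rule 2, 5, 6 and 2 were above embryo at 0, 2, 7 and 21 h, and 0, 1, 0 and 1 below at 0, 0.5, 7 and 21 h; 0, 1 and 2 were higher than 0 h at 2, 7 and 21 h, and 2, 2, 0 and 1 lower at 0.5, 2, 7 and 21 h. The shares of all genes printed further up hold for the main processing and size rule only, so the counts under alternatives have no such share beside them. Whether these counts differ from all genes cannot be read from them. Quantile normalization gave 17 and 18 above embryo at 0 and 21 h, 1 below at 0.5 h, 7, 1 and 8 higher than 0 h at 0.5, 7 and 21 h, and 5 lower at 7 h. With no centring 2 were below embryo at 0.5 h, and 1 was higher and 3 lower than 0 h at 7 h. Scaled to one median absolute deviation, 1 was below embryo at 0.5 h and 3 were lower at 7 h. With probes filtered on the arrays compared 2 were lower at 7 h. Chosen after seeing the data, leaving the 0.5 h array out of the filter gave 2 lower at 7 h, and removing the running median over a wide window of probe numbers gave 1 higher and 3 lower at 7 h. The Il27ra difference at 0.5 h turned to -0.0220 under one median absolute deviation and -0.228 under quantile normalization. For the other shifts the cause was not tested.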
